A study of Homo sapiens with 4 samples.

Results

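The complement receptors and membrane regulators examined here were 9 genes of the 60662 in an RNA-seq table of NB4 cells: CR1, CR1L, CR2, CD46, CD55, CD59, C3AR1, C5AR1 and CD93. They were picked by name as the family around CR1, which had itself been selected on its log2 fold change between JMJD3 and vector cells, the 26th from the highest among 15246 tested genes. The values of the 9 genes in that comparison are therefore given as a description. Where they are counted among the calls of the test over all genes, nothing is read from those calls.

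NB4 is a human acute promyelocytic leukaemia line (the M3/APL subtype) that carries the PML-RARα fusion. The cells were transduced with an empty control vector (2 libraries) or with a vector expressing wild-type JMJD3 (2 libraries), a histone demethylase encoded by KDM6B. The methods describe lentiviral pLVX backbones that co-express GFP or YFP from an IRES and sorting of GFP+ cells, without saying which backbone the sequenced cells carried, and the control cells received the empty vector. Whether libraries of the same group stem from separate transductions or cultures is not said in the sources used here, so p-values measure only the spread between these libraries, which may be technical.

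Complement is a cascade of plasma proteins that tags microbes and damaged cells with fragments of C3 and C4, recruits leukocytes through the small peptides C3a and C5a, and can end in a pore through the target membrane. Host cells carry receptors that bind the tags and peptides, and membrane regulators that break up the enzymes of the cascade on their own surface. Neutrophils and monocytes use these receptors to find and engulf tagged targets, and several of the receptors appear on myeloid cells only as they mature.

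Of the 9 genes, 8 matched the RefSeq promoter table of GRCh38.p14, with 12 start sites between them, and CD93 did not. The 250 bases before the annotated start are printed for CR1 and C5AR1, which had the highest and the lowest fold change of the group, and for CR1L and CD46, whose windows resembled each other. Capitals mark matches on either strand to any of 7 motifs: CCAAT, the GC box GGGCGG, the TATA box TATAAA, the PU.1 core GAGGAA, the RUNX core TGTGGT, the C/EBP pattern TTNNGNAA and the octamer ATGCAAAT. The octamer was added after the CR1 window had been read. All 4 windows lie on the plus strand, at chr1:207495907-207496156 for CR1, chr1:207644883-207645132 for CR1L, chr1:207751788-207752037 for CD46 and chr19:47309611-47309860 for C5AR1.
CR1: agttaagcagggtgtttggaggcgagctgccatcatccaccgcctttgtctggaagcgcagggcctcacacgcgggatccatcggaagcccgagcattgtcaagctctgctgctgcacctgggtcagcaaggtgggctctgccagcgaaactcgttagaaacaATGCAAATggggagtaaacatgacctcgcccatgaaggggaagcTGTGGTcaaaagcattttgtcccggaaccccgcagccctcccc
CR1L: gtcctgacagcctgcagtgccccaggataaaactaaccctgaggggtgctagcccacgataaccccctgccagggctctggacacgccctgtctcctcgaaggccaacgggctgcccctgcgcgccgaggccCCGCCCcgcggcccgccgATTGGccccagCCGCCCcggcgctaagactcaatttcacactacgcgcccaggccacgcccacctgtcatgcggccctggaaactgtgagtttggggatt
CD46: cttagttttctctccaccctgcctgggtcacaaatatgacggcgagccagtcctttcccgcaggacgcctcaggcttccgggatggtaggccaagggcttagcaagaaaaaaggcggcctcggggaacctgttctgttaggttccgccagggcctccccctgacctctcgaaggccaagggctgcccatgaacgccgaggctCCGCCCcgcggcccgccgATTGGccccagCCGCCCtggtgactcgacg
C5AR1: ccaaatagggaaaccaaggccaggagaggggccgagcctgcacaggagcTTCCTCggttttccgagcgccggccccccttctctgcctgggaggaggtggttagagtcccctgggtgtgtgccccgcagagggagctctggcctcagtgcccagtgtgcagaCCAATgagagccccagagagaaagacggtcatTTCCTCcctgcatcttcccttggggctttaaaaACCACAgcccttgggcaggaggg

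The CR1 window held the octamer, 87 bases before the start, and a RUNX core 43 bases before it. The octamer was in 1.63% of 34943 promoter windows of the same length, and the RUNX core in 11% of them and in windows of 4 of the 8 genes. The C5AR1 window held the PU.1 core at 201 and 56 bases before the start (23.6% of all windows held it), a RUNX core 23 bases before it and a CCAAT box 88 bases before it (32.0% of all windows). No window of the other 7 genes held the PU.1 core. GC boxes were in windows of 5 of the 8 genes, CR1 and C5AR1 not among them, and in 42.5% of all windows. The C/EBP pattern was in windows of CD59 and C3AR1 and in 33.2% of all windows, and TATAAA was in that of C3AR1 and in 10.8%. A match describes the letters of the window and says nothing about binding.

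The printed windows of CR1L and CD46 aligned over 102 columns with 86 identical bases (84.3%), a stretch that held the CCAAT box and both GC boxes of each printed window. No other pair of first windows among CR1, CR1L, CR2, CD46 and CD55 aligned over more than 38 columns by the same scoring. CR1L had 8 reads or fewer in every library, whereas CD46 had 3042 or more. The pseudogene CD46P1 starts just inside CR1L on the same strand, at 207818579 against 207818458 for CR1L on GRCh37. It had 1 read or fewer in every library. Whether the shared stretch belongs to CR1L or to CD46P1 was not tested.

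The deposited table gives an estimated count and an FPKM value (fragments per kilobase of transcript, scaled to depth) for each gene and library. Most low estimated counts of a library (94.3 to 94.5% of those up to 100 reads) were multiples of a single step, and dividing all counts by it gave 34190262 and 38947060 reads for vector libraries 1 and 2 and 35431638 and 41876210 reads for JMJD3 libraries 1 and 2. Read numbers below are these recovered reads, rounded where they were not whole, and CPM are estimated counts scaled to 1e6 per library after TMM scaling. By their labels, vector library 1 ran on lane 20 and the remaining 3 on lane 17, so a comparison within lane 17 sets 1 vector library against 2 JMJD3 libraries. Log2 CPM correlated across genes at r = 0.991 between the vector libraries and at r = 0.995 between the JMJD3 libraries. Genes are not independent replicates, and these values describe the libraries only.

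KDM6B, the transduced gene, stood at 15.8 and 13.7 CPM in vector libraries 1 and 2 and at 37.9 and 44.1 CPM in JMJD3 libraries 1 and 2. Both JMJD3 libraries were above both vector libraries, as their labels say, with a log2 fold change of 1.48 (standard error 0.13, Benjamini-Hochberg adjusted p = 0.00114 in edgeR's quasi-likelihood test) and 1.53 within lane 17. Every gene named below with a log2 fold change kept its sign within lane 17.

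Of the 9 genes, 7 passed the filter on low counts and 2, CR1L and CR2, did not. Calls required a 2-fold difference together with an adjusted p under 0.05. CR1 was called higher and C5AR1 called lower in JMJD3 cells, 1 gene each of 7, where 7.55% and 2.82% of all tested genes were called in these directions. With an adjusted p under 0.05 at any fold, 4 of the 7 were higher (CR1, CD46, CD55 and CD93) and 1 was lower (C5AR1), beside 21.6% and 19.1% of all tested genes. With no filter on low counts CD46 and CD93 no longer passed, and CD59 passed as lower with DESeq2 size factors or without either vector library. The groups did not overlap for 6 of the 7, C3AR1 being the exception, beside 74.4% of all tested genes. The median log2 fold change of the 7 was 0.60, and that of all tested genes 0.04. Nothing is read from these counts, since the comparison itself chose CR1.

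**Figure D1:**
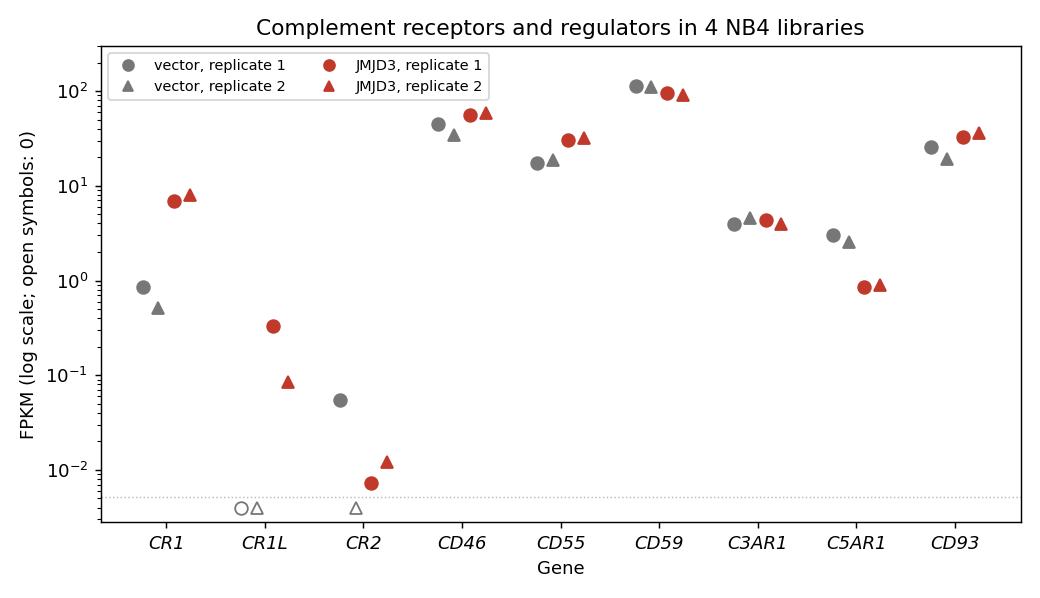
FPKM of the 9 genes in each library on a log axis, with vector libraries in grey, JMJD3 libraries in red, circles for replicate 1, triangles for replicate 2 and open symbols for a value of 0. CR1 lies between 0.517 and 0.844 FPKM in vector libraries and between 6.87 and 7.94 in JMJD3 libraries, C5AR1 is lower in both JMJD3 libraries, and CD59 has the highest FPKM of the 9 in every library.

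CR1 (ENSG00000203710, GRCh37 chromosome 1 from 207669492 to 207815110, plus strand) encodes the receptor for C3b and C4b, which takes up tagged particles and also serves as a cofactor for the cleavage of both fragments. It had 140 and 88 reads in vector libraries 1 and 2, and 1382 and 1889 reads in JMJD3 libraries 1 and 2. In CPM these were 4.32 and 2.41 against 37.0 and 42.3. Every library gave CR1 reads, and the lower JMJD3 library was far above the higher vector library. The means were 3.36 ± 1.35 CPM (SD, n = 2) and 39.7 ± 3.71 CPM (SD, n = 2), a log2 fold change of 3.56 (standard error 0.24) or 11.8-fold. The vector libraries differed from each other more than the JMJD3 libraries did in proportion, and the log2 fold change was 4.0 within lane 17. In bulk RNA, more cells with CR1 transcripts and more CR1 transcripts per cell cannot be told apart.

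Among the 15246 tested genes, the mean FPKM of CR1 lay above 15.7% of genes in vector cells and above 46.4% in JMJD3 cells. CR1 moved from a low to a middling place in this order and stayed well under CD46. The FPKM of CR1 was 0.0187 and 0.0149 of that of CD46 in vector libraries 1 and 2, and 0.122 and 0.136 of it in JMJD3 libraries 1 and 2.

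The CR1 transcript repeats itself, and what that does to its count was not tested. Of the 9838 stretches of 100 bases in its longest GENCODE transcript, 36.2% occurred more than once in that transcript and 4.72% occurred in transcripts of other genes on either strand, namely CR1L and the antisense RNA ENSG00000236911. That antisense gene, inside CR1 on the minus strand, had 1 and 3 reads in vector libraries and 16 and 9 reads in JMJD3 libraries. The sources used here do not state strand-specific counting, so reads of CR1 and of this gene cannot be told apart where they overlap. The antisense reads were few beside those of CR1 in all 4 libraries.

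CR1L (ENSG00000197721), the CR1-like gene that starts 3.3 kb beyond the end of CR1, had 0 reads in both vector libraries and 8 and 5 reads in JMJD3 libraries 1 and 2. Its mean of 0.173 CPM in JMJD3 cells (from recovered reads, no TMM scaling) was 1.97 times a floor of 3 reads in vector library 1. That ratio leaves out the counting error of the few JMJD3 reads, so it is not a lower limit. Of the reads of CR1 and CR1L together, CR1L took 0.576% (exact 95% interval 0.249 to 1.13%) in JMJD3 library 1 and 0.264% (0.0858 to 0.615%) in JMJD3 library 2. The 0 reads of vector libraries 1 and 2 allow shares of up to 2.60% and 4.11% by the same intervals (2.14% and 3.41% by the rule of 3 reads of the total), so a difference in share was not detectable at this depth. Such intervals and floors cover counting error only. Since 3.58% of the 100-base stretches of CR1L also occur in CR1, its few reads are uncertain, and summing both genes before the fit gave a log2 fold change of 3.57 in place of 3.56.

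CR2 (ENSG00000117322), the receptor for C3d that B lymphocytes use, ends 6.3 kb before CR1 starts. It had 1 and 0 reads in vector libraries 1 and 2 and 1 and 2 reads in JMJD3 libraries 1 and 2. Both groups were at or under the floor of 3 reads in every library, and no fold change is given.

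CD46 (ENSG00000117335), CD55 (ENSG00000196352) and CD59 (ENSG00000085063) protect a cell from its own complement. CD46 is the membrane cofactor through which C3b and C4b on the cell are cleaved. It stood at 113 and 83.4 CPM in vector libraries 1 and 2 and at 147 and 149 CPM in JMJD3 libraries 1 and 2. The JMJD3 libraries lay close together above both vector libraries, which were apart from each other. The log2 fold change was 0.60 (standard error 0.14), with 0.79 within lane 17 and 0.39 when vector library 2 was left out. The lncRNA C1orf132 overlaps CD46 on the opposite strand and also differed (log2 fold change 0.74, standard error 0.14, Benjamini-Hochberg adjusted p = 0.00903 in edgeR). It had 137 and 134 reads in vector libraries and 238 and 305 reads in JMJD3 libraries, few beside the 3042 to 6667 reads of CD46, and 3.03% of the 100-base stretches of the longest CD46 transcript occur in it on either strand. C1orf132 was named after its values had been seen, and it did not pass with limma on FPKM.

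CD55, the decay-accelerating factor, takes apart the enzymes that cleave C3 and C5. It was at 33.5 and 34.3 CPM in vector libraries 1 and 2 and at 55.2 and 54.0 CPM in JMJD3 libraries 1 and 2. Replicates were nearly equal and the groups did not overlap, with a log2 fold change of 0.69 (standard error 0.09) and 0.63 within lane 17.

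CD59 blocks assembly of the membrane pore. It was at 118 and 114 CPM in vector libraries 1 and 2 and at 102 and 97.4 CPM in JMJD3 libraries 1 and 2. Both JMJD3 libraries were slightly lower, with a log2 fold change of -0.22 (standard error 0.08) that was -0.24 within lane 17. Per length, CD59 had the highest level of the 9 genes in all 4 libraries, at 113 and 112 FPKM against 94.6 and 91.6 FPKM. Of the 100-base stretches of its longest transcript, 6.92% also occur in ENSG00000284969, a gene next to it that was not analysed here.

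CR1, CD46, CD55 and CD59 together, the members that limit complement on the cell that carries them, summed to 177 and 166 FPKM in vector libraries 1 and 2 and to 188 and 190 FPKM in JMJD3 libraries 1 and 2. Both JMJD3 sums were above both vector sums, and their make-up differed as well. These are sums of FPKM, and sums of CPM were not taken. CD59 gave 64.1% and 67.3% of the sum in vector libraries and 50.2% and 48.3% in JMJD3 libraries, and CD55 and CD46 took most of the remainder.

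C3AR1 (ENSG00000171860), the receptor for C3a, was at 7.31 and 8.17 CPM in vector libraries 1 and 2 and at 8.02 and 7.29 CPM in JMJD3 libraries 1 and 2. The groups overlapped, and the log2 fold change of -0.02 (standard error 0.13) was smaller than its error and was 0.02 with upper quartile scaling, and above 0 without vector library 2 or JMJD3 library 2.

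C5AR1 (ENSG00000197405, GRCh37 chromosome 19 from 47793280 to 47825323, plus strand), the receptor through which C5a attracts and activates neutrophils, had 176 and 183 reads in vector libraries 1 and 2 and 53 and 70 reads in JMJD3 libraries 1 and 2. In CPM these were 5.42 and 5.03 against 1.43 and 1.57. Replicates lay close together and both JMJD3 libraries were lower, with means of 5.23 ± 0.277 CPM (SD, n = 2) and 1.5 ± 0.0955 CPM (SD, n = 2). The log2 fold change was -1.80 (standard error 0.16), a 3.48-fold lower level, with -1.79 within lane 17. It was the 135th from the lowest among the tested genes.

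Next to it, 10.1 kb beyond its end, lies C5AR2 (ENSG00000134830), the other receptor for C5a, which does not couple to G proteins. C5AR2 had 90 and 108 reads in vector libraries 1 and 2 and 295 and 310 reads in JMJD3 libraries 1 and 2, and so moved the opposite way to its neighbour. Its log2 fold change was 1.37 (standard error 0.15, Benjamini-Hochberg adjusted p = 0.00184 in edgeR), with 1.28 within lane 17. In FPKM, C5AR1 was 2.19 and 1.96 times C5AR2 in vector libraries 1 and 2 and 0.246 and 0.276 times C5AR2 in JMJD3 libraries 1 and 2. The order of the C5a receptor transcripts was thus inverted in both JMJD3 libraries. None of the 100-base stretches of the longest C5AR1 transcript occurred in a transcript of another gene.

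**Figure D2:**
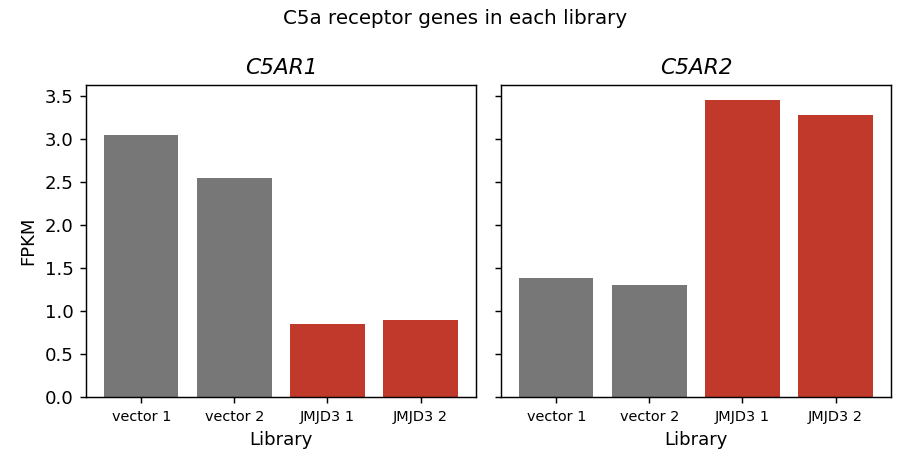
FPKM of C5AR1 and C5AR2 as bars from 0, with 1 bar per library, vector libraries in grey and JMJD3 libraries in red. C5AR1 goes from 3.04 and 2.55 FPKM in vector libraries to 0.850 and 0.903 in JMJD3 libraries, and C5AR2 from 1.39 and 1.3 to 3.45 and 3.28.

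CD93 (ENSG00000125810), a C-type lectin of myeloid and endothelial cells that was first described as a C1q receptor, stood at 167 and 122 CPM in vector libraries 1 and 2 and at 216 and 238 CPM in JMJD3 libraries 1 and 2. The groups did not overlap, although the vector libraries lay apart. The log2 fold change was 0.65 (standard error 0.15), with 0.86 within lane 17 and 0.43 when vector library 2 was left out.

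The rest of the pathway was followed in a list of 53 other complement genes, of which 21 were tested and 18 had no read in any library. Of the 21, 9 were higher and 3 were lower with a Benjamini-Hochberg adjusted p under 0.05 in edgeR (42.9% and 14.3%, beside the 21.6% and 19.1% of all tested genes), and their median log2 fold change was 0.43. With limma on FPKM only 4 or 3 were higher (added 1 or 0.1), and 5 were lower without vector library 1. The highest in the edgeR fit was ITGAX, which encodes the alpha chain of the iC3b receptor CR4, at 8.55 and 8.36 CPM in vector libraries and 27.3 and 28.2 CPM in JMJD3 libraries. Its log2 fold change was 1.71 (standard error 0.10, Benjamini-Hochberg adjusted p = 0.000432 in edgeR). Among the 9 higher genes C5, C5AR2, CLU and C1R followed with log2 fold changes of 1.54, 1.37, 1.32 and 1.02, and C5, CLU and C1R were under 3 CPM in every library. C5 and CLU did not pass with limma on FPKM, nor C1R with the DESeq2 Wald test, with limma on log2(FPKM + 0.1) or without either JMJD3 library. ITGB2, the beta chain shared by CR3 and CR4, and ITGAM, the alpha chain of CR3, had log2 fold changes of 0.74 and 0.59, C1RL of 0.88 and FCN1 of 0.43. These last 4 genes were named after their values had been seen, and ITGAM, C1RL and FCN1 did not pass with limma on FPKM, nor ITGAM without JMJD3 library 2, nor FCN1 without either JMJD3 library or with no filter on low counts.

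The lower genes were MASP2, a protease that starts the lectin pathway, C1QBP, a mostly mitochondrial protein that binds C1q, and CFP, the stabiliser properdin. MASP2 went from 3.48 and 3.25 CPM in vector libraries to 1.08 and 1.3 CPM in JMJD3 libraries (log2 fold change -1.5, standard error 0.19, Benjamini-Hochberg adjusted p = 0.00256 in edgeR). The log2 fold changes of CFP and C1QBP were -0.80 and -0.77, and CFP did not pass with limma on log2(FPKM + 1). In 3 of the 5 stages listed, 3 of 6 tested initiation genes were higher and 1 was lower, only CFP of 6 activation genes passed, and 4 of 7 other receptors and membrane proteins were higher and 1 was lower, beside the 21.6% and 19.1% of all tested genes. The terminal and soluble regulator stages had too few tested genes to tally.

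**Figure D3:**
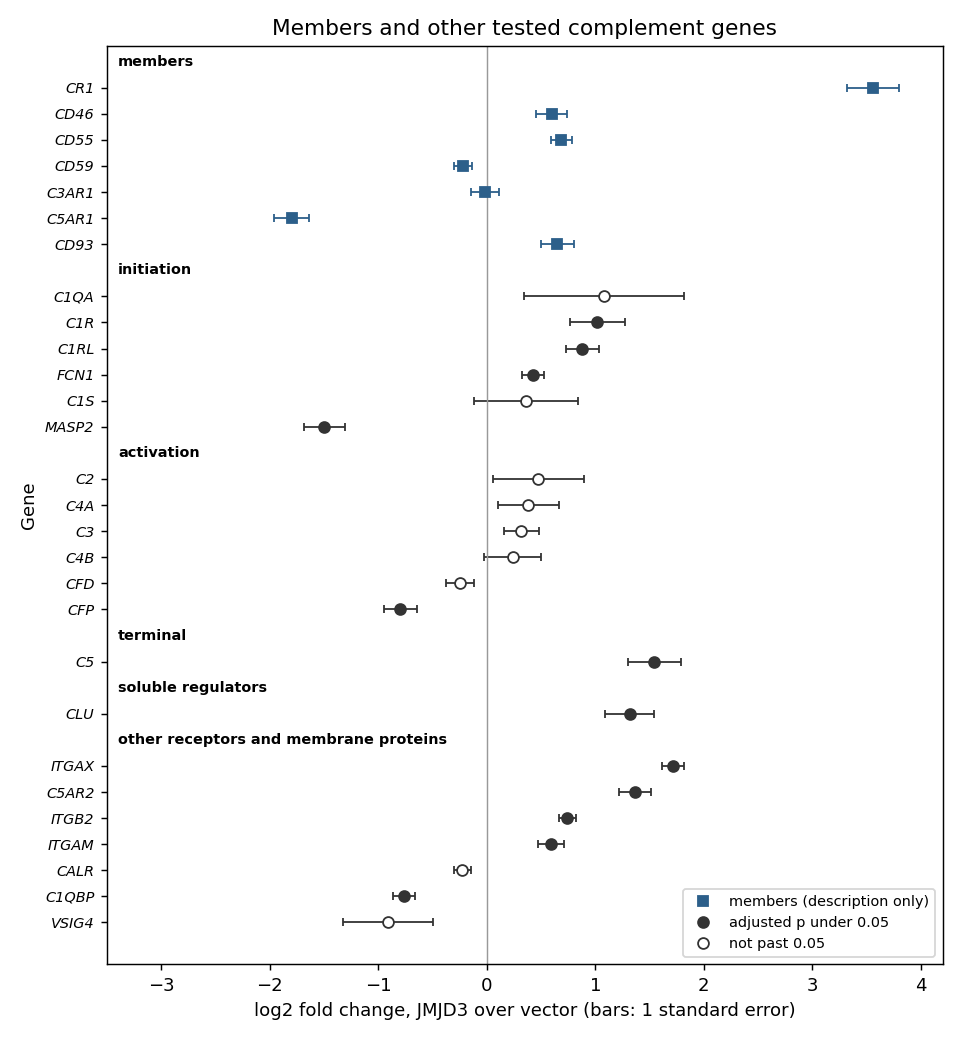
Log2 fold change of JMJD3 over vector for the 7 tested members (blue squares, a description only) and the 21 other listed complement genes that were tested by stage (circles, filled at a Benjamini-Hochberg adjusted p under 0.05 in edgeR), with bars of 1 standard error. CR1 at 3.56 lies farthest to the right and C5AR1 at -1.80 farthest to the left.

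CD55 and CD59 reach the surface on a glycosylphosphatidylinositol (GPI) anchor, which is built and attached in the endoplasmic reticulum. All 28 listed genes of this route were tested, and 21 of them did not pass an adjusted p of 0.05. PIGV, PIGM, PIGN, PIGQ and PGAP3 were higher, with log2 fold changes of 0.85, 0.78, 0.65, 0.55 and 0.55, and PIGU and PIGW lower, with -0.59 and -0.55. That made 17.9% higher and 7.14% lower, beside 21.6% and 19.1% of all tested genes by the same Benjamini-Hochberg adjusted edgeR test. These counts depend on the libraries, since with 1 library left out 3 to 10 of the 28 were higher and 1 to 6 were lower, so no difference from all genes is read from them. Of the 7 named here, PIGV and PIGU alone passed under every alternative tried. The 28 log2 fold changes lay between -0.59 and 0.85, with a median of 0.11. PIGA, whose product takes part in the opening step of the route, was at 17.8 and 11.8 CPM in vector libraries and at 18.4 and 17.7 CPM in JMJD3 libraries, and the groups overlapped. PIGA was named after its values had been seen.

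**Figure D4:**
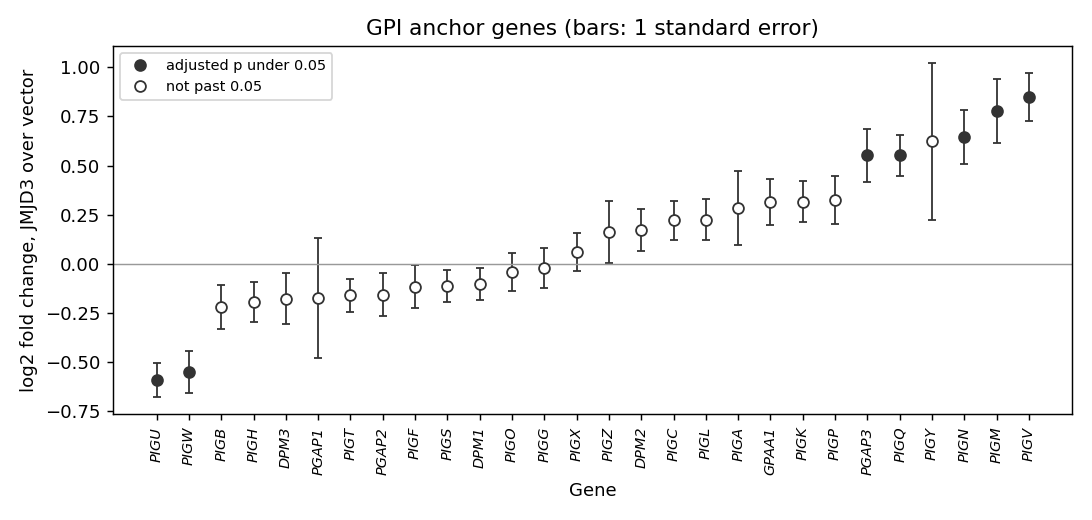
Log2 fold change of JMJD3 over vector for the 28 GPI anchor genes in order of size, with bars of 1 standard error and filled circles at a Benjamini-Hochberg adjusted p under 0.05 in edgeR. The values run from -0.59 for PIGU to 0.85 for PIGV, within a 2-fold difference either way.

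CD55, CR2, CR1, CR1L and CD46 lie in this order in one cluster on chromosome 1. Of the 20 nearest protein-coding genes, 10 on each side of CR1, 7 were tested. Besides CD55 and CD46, these were YOD1 and PLXNA2, both under 1 CPM, and LAMB3, TRAF3IP3 and C1orf74. YOD1, 443.2 kb before CR1, had a log2 fold change of -1.43 (standard error 0.46, Benjamini-Hochberg adjusted p = 0.0453 in edgeR), and PLXNA2, 380.5 kb beyond CR1, one of -1.83 (standard error 0.67, adjusted p = 0.0655 in the same fit). YOD1 no longer passed with the DESeq2 Wald test, with limma on FPKM, with no filter on low counts, or without vector library 1 or either JMJD3 library, while PLXNA2 was at -1.88 and passed with the replicate number as a block. PLXNA2 also passed with limma on log2(FPKM + 0.1) and without JMJD3 library 1, at -3.52, and was at -1.08 without JMJD3 library 2.

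Farther out, LAMB3 was at -0.60 (standard error 0.28), TRAF3IP3 at 0.44 (standard error 0.09) and C1orf74 at 1.07 (standard error 0.13), each 1973.1 kb or more beyond CR1. TRAF3IP3 and C1orf74 overlap on opposite strands, with Benjamini-Hochberg adjusted p = 0.0122 and 0.00236 in edgeR, and their reads may be shared. TRAF3IP3 did not pass with limma on FPKM or without either JMJD3 library, and LAMB3 was at -0.92 and passed without vector library 1 but was at -0.25 and did not pass without vector library 2. The highest log2 fold change among the tested neighbours was the 1.07 of C1orf74. The 13 untested neighbours, CD34, C4BPA and C4BPB among them, had too few counts to say.

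**Figure D5:**
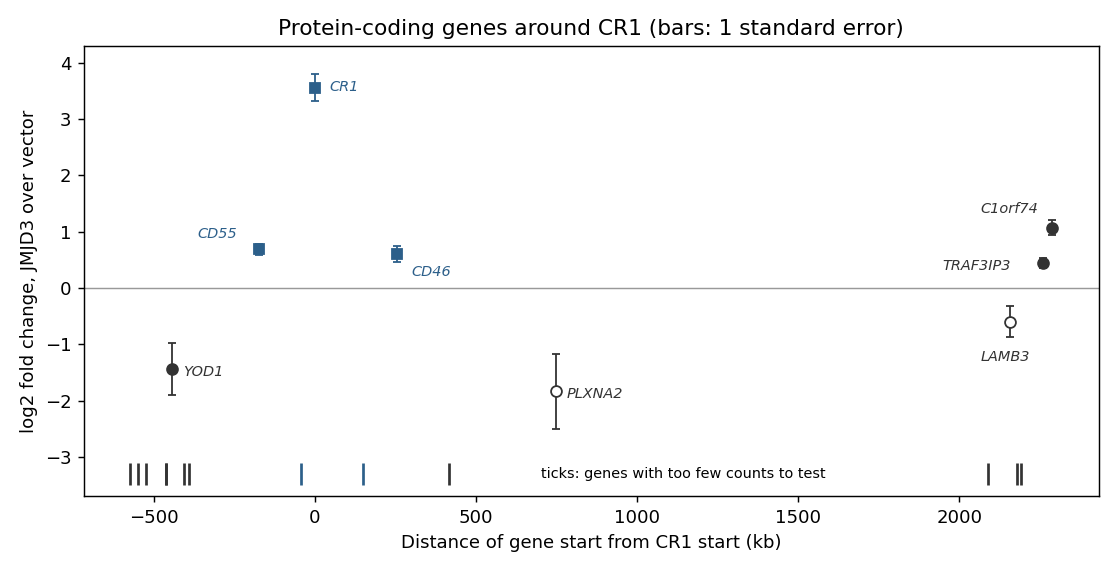
Log2 fold change of JMJD3 over vector against the distance of each gene's start from that of CR1 in kb, with bars of 1 standard error, members as blue squares, other genes as circles filled at a Benjamini-Hochberg adjusted p under 0.05 in edgeR, and ticks for genes with too few counts. CR1 stands at 3.56 and its closest tested neighbours CD55 and CD46 at 0.69 and 0.60.

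Around the other members, the 3 nearest protein-coding genes on each side were examined. SLC2A3, a glucose transporter gene 37.8 kb from C3AR1, was at 27.5 and 26.5 CPM in vector libraries and at 59.8 and 58.9 CPM in JMJD3 libraries, while C3AR1 itself overlapped between groups. Its log2 fold change was 1.14 (standard error 0.09, Benjamini-Hochberg adjusted p = 0.00105 in edgeR). Only SLC2A3 and C5AR2 among these neighbours were called at 2-fold.

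The genes most like CR1 over the 4 libraries, by Euclidean distance between mean-centred log2(CPM + 0.5) among 12421 genes, were HDC, EGR1, LCN10, H19 and CTSW, at distances from 0.522 to 0.839. HDC, which encodes histidine decarboxylase, went from 29.7 and 29.2 CPM in vector libraries to 328 and 319 CPM in JMJD3 libraries. The immediate early gene EGR1 went from 3.51 and 3.07 CPM to 30.5 and 31.5 CPM. Over 4 libraries in 2 groups, likeness means mainly a fold change of similar size: the log2 fold changes of the 5 genes were 3.46, 3.24, 4.07, 3.76 and 3.02.

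Since CR1 is known from red cells, B lymphocytes, monocytes and granulocytes, markers of several cell types were summed in each library. The lists covered red cells, B lymphocytes, monocytes, promyelocytes and other cells, but there was no list for mature granulocytes. The 7 promyelocyte markers, led by MPO, summed to 16577 and 17373 CPM in vector libraries 1 and 2 and to 10474 and 10436 CPM in JMJD3 libraries 1 and 2, and none was at 0 in any library. MPO gave most of the sum, at 13876 and 14110 CPM in vector libraries and 9379 and 9421 CPM in JMJD3 libraries. CTSG went from 145 and 164 CPM to 10.96 and 9.61 CPM, and PRTN3 from 2096 and 2535 CPM to 685 and 636 CPM. AZU1 was also lower in both JMJD3 libraries, and KIT overlapped between groups. CD33 went against the sum, from 65.1 and 68.7 CPM to 83.5 and 79.7 CPM. ELANE, a defining gene of promyelocytes, had 11 and 7 reads in vector libraries and 1 and 2 reads in JMJD3 libraries. The 7 monocyte and macrophage markers summed to 8.77 and 6.79 CPM in vector libraries and to 15.7 CPM in both JMJD3 libraries, with 4 of the 7 under 10 reads in every library and none at 0 in all 4 libraries. The rise was that of CSF1R, from 4.94 and 3.85 CPM to 12.9 CPM in both JMJD3 libraries, whereas MS4A7 was lower in both (3.45 and 2.67 against 2.38 and 2.54 CPM) and CD14 overlapped between groups. Whether such shifts bear on CR1 or C5AR1 was not tested.

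Of the 7 erythroid markers, 6 were at 0 in all libraries, HBA1, HBA2 and HBB among them, and EPB42 alone gave 0.378 and 0.943 CPM in vector libraries and 1.24 and 0.999 CPM in JMJD3 libraries. The 7 B lymphocyte markers summed to 26.1 and 30.8 CPM in vector libraries and to 37.1 and 33.2 CPM in JMJD3 libraries, led by CD79B, with MS4A1 at 0. CD79B overlapped between groups, and CD79A went from 7.64 and 8.62 CPM to 15.3 and 13.7 CPM. The 5 megakaryocyte and platelet markers, led by GP1BA, summed to 2.54 and 1.91 CPM against 3.43 and 3.51 CPM, with PF4 and GP9 at 0. GP1BA overlapped between groups, and ITGA2B went from 0.594 and 0.655 CPM to 1.76 and 1.62 CPM. The 6 T and NK markers, led by NKG7, summed to 87.6 and 108 CPM against 98.4 and 95 CPM, with none at 0 in all 4 libraries. NKG7 overlapped between groups, and CD2 went from 3.48 and 4.85 CPM to 10.8 CPM in both JMJD3 libraries. These single markers were named after their values had been seen.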

How the data were processed

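RNA was sequenced from NB4 cells (2 vector and 2 JMJD3 libraries). The authors deposited estimated counts and FPKM per gene and library. How they were made differs between sources: the submitters' processing notes name CASAVA 1.8, TopHat2 2.0.4, RSEM, edgeR and GRCh38, the methods STAR, hg19, HTSeq-count and DESeq2, and the series text BWA, Cufflinks and ANOVA. Of the nonzero deposited counts, 99.4% were not whole. Divided by 1 step per library (1.14, 1.05, 0.993 and 0.829), 94.3 to 94.5% of values up to 100 reads were whole within 0.01, so each library had been scaled. The deposited fold changes, p-values, FDR and mean FPKM were not used.

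The counts as deposited were rounded, filtered with filterByExpr (15246 genes kept), TMM-scaled and tested with edgeR 4.0.16 (glmQLFit, glmQLFTest, R 4.3.3) without covariates, with Benjamini-Hochberg adjustment over all genes kept. The standard error is the log2 fold change divided by the square root of F. Alternatives used limma 3.58.1 and DESeq2 1.42.0. Simulated data checked the test. Gene positions are from GENCODE release 44 on GRCh37 (93.9% of identifiers matched), and promoters from RefSeq. A floor is 3 reads.

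Members and lists were chosen with earlier results of these data known. After the analysis 2 genes were taken out of the lists for a reason unrelated to their values, and they are not reported here. Named genes were the members, KDM6B, up to 5 per direction in the complement and GPI lists by log2 fold change at an adjusted p under 0.05, tested neighbours of CR1, called neighbours elsewhere, and the 5 genes most like CR1 with a mean of at least 1 FPKM in JMJD3 cells.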

Additional observations from a re-analysis of the deposited data

How the results depend on the processing

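Among the members, CD46 and CD93 no longer passed with no filter on low counts, at log2 fold changes of 0.59 and 0.65, and CD59 passed with DESeq2 size factors and without vector library 1 or 2, at -0.25, -0.24 and -0.25. C3AR1 turned to 0.020 with upper quartile scaling. With each library left out in turn, CD59 ranged from -0.25 to -0.18 and C3AR1 from -0.14 to 0.061. The cause was not tested. CR1 kept its direction throughout. With all libraries it ranged from 2.33 with limma on log2(FPKM + 1), where the added 1 shrinks low genes, to 3.6 with upper quartile scaling, and C5AR1 from -1.01 to -1.84. With a library left out CR1 ranged from 3.19 to 4.0. With the edgeR fit 1151 genes were called higher and 430 lower; limma on log2(FPKM + 1) called 293 and 168, and a 1.5-fold limit 2296 and 1205. At an adjusted p under 0.05 with any fold, 3292 genes were higher and 2906 lower. There were 2046 higher with limma on log2(FPKM + 1), 2032 higher with limma on log2(FPKM + 0.1), and 1893 higher and 1776 lower with no filter. Leaving out each library gave 1890 to 4248 higher, fewest without JMJD3 library 2, and 1110 to 4212 lower, most without vector library 1. Of the other complement genes, 4 and 3 were higher with limma at pseudocounts of 1 and 0.1, and 3 to 5 were lower with a library left out. Of the GPI anchor genes, 3 were higher and 1 lower with limma at either pseudocount, 2 were higher with no filter, and with a library left out 3 to 10 were higher and 1 to 6 lower. Replicate 1 of each group deviated from its group mean with a correlation of -0.146 between groups. With vector library 1 alone on its lane, this value cannot show whether the numbers pair the libraries. With the replicate number as a block, 1243 genes were called higher and 476 lower, and the log2 fold change of CR1 was 3.59. With the block's numbers crossed, added after seeing the data, 1233 and 469 were called, and 8 GPI anchor genes were higher. Undoing the deposited scaling, also added then, gave 1157 and 438. Among 414 values of 32 other named genes, 46 lost an adjusted p under 0.05, 4 gained it and 0 changed sign. A library left out leaves 1 in its group, assumed to vary like the other group. Depth limits CR1L and CR2 to counts.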
